A study of Mus musculus with 6 samples.

Results

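The exon-based mouse lincRNA probes are 83 of the 60915 probes on the array that are no controls, and they were chosen by name alone: each begins with MM9LINCRNAEXON, followed by an exon number between 10101 and 12051 and a + or − for the strand. A probe is called here by its number and strand, so 11010+ is MM9LINCRNAEXON11010+. Whether the sign gives the genome strand of the probe or that of the transcript is not stated. There were 50 probes of the plus strand and 33 of the minus strand, for 71 exon numbers, 12 of which carried a probe for each strand. The files pair none of these numbers with a gene, a genome position or a probe sequence, and none of the 83 names matched an entry of a RefSeq gene table of assembly GRCm38.p6. Whether probes of neighbouring number belong to the same transcript is therefore not known here.

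The arrays measured C2C12 cells, an established line of mouse muscle precursor cells, in 2 states with 3 independent experiments each. Myoblasts were proliferating cells in DMEM high glucose with 10% fetal bovine serum, and myotubes were the differentiated cells, for which the medium was changed at 80 to 90% confluence to DMEM with 2% horse serum. No time in that medium is given in the sources used here, and both groups come from 1 cell line without a genetic change named in the labels. All RNA was depleted of ribosomal RNA, amplified from random primers and labelled with Cy3. No probe in the files carries the name of a muscle differentiation marker (Myog, Myh3, Ckm and Acta1 among them), so the cell state was not checked against markers.

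Long intergenic noncoding RNAs (lincRNAs) are spliced or unspliced transcripts without a long open reading frame that lie between protein-coding genes. Several are known to act in muscle differentiation: linc-MD1, for example, binds microRNAs in the cytoplasm of differentiating myoblasts and so relieves their target mRNAs, and others act in the nucleus on muscle genes. Many lincRNAs are present at low levels and in few cell types, which makes their detection on an array as informative as their change. The sources used here do not say which of these transcripts the exon numbers stand for.

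All levels are log2 of the processed signal minus the 75th percentile of the same array, so 0 is that percentile. Levels of different probes are not compared, since probes differ in how well they bind. A probe counts as detected on an array where the scanner software flagged its spot as well above background, which held for 32051 to 40383 probes of an array. Myotube replicate 1 was read in the same scan as the 3 myoblast arrays, and myotube replicates 2 and 3 were each read in a scan of their own. The number of arrays limits the precision of every value.

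Most of the exon-based probes gave no signal that the scanner called well above background. Of the 83 probes, 43 were detected on none of the 6 arrays, 8 were so on 1 or 2 arrays, 7 on 3 to 5 arrays and 25 on all 6. By array the counts were 39, 30 and 25 probes in myoblast replicates 1, 2 and 3, and 29, 31 and 31 in the myotube replicates. The same array carried 15 probes named as negative controls with 300 spots in all. The scanner flagged 39, 16 and 9 of those spots as detected in myoblast replicates 1, 2 and 3, and 14, 4 and 5 in the myotube replicates. Myoblast replicate 1 was highest in both counts, with 47.0% of the exon-based probes and 13.0% of the negative spots, and 7 of the 8 probes seen on 1 or 2 arrays were seen on it. Leaving its flag out, 28 probes were detected on at least 3 of the other 5 arrays. A signal below this limit was not detectable here, which does not show that the transcript is absent.

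The test took in 32 probes, those detected on 3 arrays or more, 16 of each strand, which is 38.6% of the exon-based probes. By the same count 59.4% of the 59064 catalogue probes, which make up most of the array, were detected. Of the 649 mouselincRNA probes 21.0% were detected and of the 1104 humanlincRNA probes 20.0%, and these shares were not tested against each other. At the limit of this filter stood 4 probes with exactly 3 arrays (10627+, 11169-, 11661- and 12051-) and, just below it, 11867+ with 2 arrays. The other 51 probes lay between −7.11 and −2.29. No exon-based probe was detected on all 3 arrays of one cell state and on 0 of the other, so none was seen in only myoblasts or only myotubes by that measure. This rests on 1 flag for 11752+, which was detected on all 3 myotube arrays and, of the myoblasts, on replicate 1 alone. That myoblast array also had the most negative spots flagged as detected.

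On differentiation 7 of the 32 tested probes rose and 10 fell at an adjusted p below 0.05 (limma, Benjamini-Hochberg over 35487 probes). That is 53.1% of them, against 50.4% of all tested probes. Over all tested probes 23.4% rose and 26.9% fell. At a change of at least 2-fold 4 probes rose and 5 fell, where 9.05% of all tested probes rose and 8.52% fell by as much. Together that is 28.1% against 17.6%, a difference that was not tested. An alternative chosen after seeing the data was normexp correction of the background, which adds 50 to each intensity. With it 0 probes rose and 4 fell by at least 2-fold. The 2-fold share of all tested probes under normexp is not given here, so that drop cannot be read as particular to the exon-based probes. No change of an exon-based probe that passed reached 4-fold. The median change was −0.12, with quartiles of −0.66 and 0.42, and for all tested probes it was −0.07, with quartiles of −0.47 and 0.37. In 20 probes the 3 myotube levels did not overlap the 3 myoblast levels, against 61.5% of all tested probes, and these included all 17 that passed. They lay above the myoblasts in 9 probes (27.8% of all tested probes) and below in 11 (33.8%). Of the 25 probes detected on all 6 arrays, 13 passed, 3 higher and 10 lower, against 50.2% of all probes detected so. The exon-based probes thus passed about as often as the array as a whole, with changes in both directions.

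Without myotube replicate 1, 23 of the 32 probes passed (9 higher, 14 lower), all 17 among them. Leaving out that array also raised the share over all tested probes, from 50.4% to 64.6%. With scan as a block 12 passed (3 higher, 9 lower), 10 of them among the 17. That fit sets myotube replicate 1 alone against the 3 myoblast arrays, so the myotube arm has no spread of its own, and its p-values do not show that a change was lost or kept.

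Falls with a call that held under each alternative were seen in 6 probes, and the SD of the myotube levels was 0.12 in each of 11009- and 11569-, 0.07 in 12036- and 0.27 in 10541+. Probe 11009- stood at −1.95, −1.96 and −2.13 on myoblast replicates 1, 2 and 3 and at −3.20, −3.16 and −3.38 on myotube replicates 1, 2 and 3. Its fall was 2.35-fold (log2 change −1.23, SE 0.11, limma adjusted p = 0.000137). The 6 values formed a tight group in each cell state with a wide gap between them. Probe 11569- was at 1.91, 1.72 and 1.83 in myoblasts and at 0.67, 0.66 and 0.46 in myotubes, a fall of 2.34-fold (log2 change −1.23, SE 0.11, limma adjusted p = 0.000125). Of this exon number the plus-strand probe 11569+ was not well above background on any array. Probe 12036- fell from −2.76, −2.50 and −2.62 to −3.30, −3.42 and −3.33, by 0.72 on the log2 scale (SE 0.11, limma adjusted p = 0.00152). Probe 10541+ fell from −1.74, −1.96 and −1.80 to −2.48, −2.96 and −2.51, by 0.82 (SE 0.15, limma adjusted p = 0.00444). With normexp the changes were −0.66 for 11009-, −1.15 for 11569-, −0.43 for 12036- and −0.50 for 10541+. The lowest level of any probe flagged as well above background was −3.42, −3.80 and −3.75 on myotube replicates 1, 2 and 3. In myotubes 11009- and 12036- lay close to those levels, which limits how exactly the size and SD of their falls can be read.

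In 3 other falls the myotube arrays were uneven. Probe 10569- was at 1.85, 1.31 and 1.31 in myoblasts and at 0.42, −1.17 and −0.50 on myotube replicates 1, 2 and 3. It fell 3.76-fold, the largest change of any exon-based probe that was tested (log2 change −1.91, SE 0.39, limma adjusted p = 0.00597). Myotube replicate 1 lay nearest to the myoblasts and still below all of them. In probe 11711+ myotube replicate 1 also lay nearest to the myoblasts, with 3.66, 3.58 and 3.82 in myoblasts and 3.01, 1.96 and 1.80 in myotubes (log2 change −1.43, SE 0.31, limma adjusted p = 0.00768). Probe 10343+ went from 0.07, 0.27 and 0.13 to −0.36, −1.66 and −1.01 (log2 change −1.17, SE 0.30, limma adjusted p = 0.0163). In these 3 probes myotube replicate 1 gave the smallest fall, and the SD of the myotube levels, at 0.80, 0.66 and 0.65, was above that of the myoblast levels, at 0.31, 0.12 and 0.10. On myotube replicate 1 alone, which shared the scan of the myoblasts, the changes were −1.07 for 10569-, −0.67 for 11711+ and −0.52 for 10343+. Probe 10343+ missed the threshold without myoblast replicate 2 (limma adjusted p = 0.0529) or myotube replicate 3 (0.0561).

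Another 3 falls were smaller. Probe 10664+ was at 7.99, 7.84 and 7.94 in myoblasts and at 7.60, 7.33 and 7.23 in myotubes, and none of its spots was saturated. It fell by 0.54 (SE 0.12, limma adjusted p = 0.0103), but under quantile normalization the change was −0.20 and did not pass (0.0971), and on myotube replicate 1 alone it was −0.33. The levels of probe 10667+ were −1.70, −2.19 and −1.94 in myoblasts and −2.51, −2.86 and −2.39 in myotubes, a fall of 0.64 (SE 0.17, limma adjusted p = 0.0200). On myotube replicate 1 alone the change was −0.57. The call was lost without the filter on dim probes (limma adjusted p = 0.0625) and without myoblast replicate 1 (0.0680), myoblast replicate 3 (0.0565) or myotube replicate 2 (0.0570). With normexp its change was −0.36. Probe 11712+ fell from −1.78, −1.96 and −1.76 to −2.23, −2.39 and −2.31, by 0.48 (SE 0.10, limma adjusted p = 0.00857), and its change was −0.40 on myotube replicate 1 alone.

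Each of the 10 falls was larger on the mean of myotube replicates 2 and 3 than on myotube replicate 1. The same held for 67.9% of all probes that fell on the array, so the direction of this difference was common there too. Of the 7 rises, 4 were larger on myotube replicates 2 and 3, against 63.3% of all probes that rose. The scan and the culture cannot be told apart for myotube replicates 2 and 3, since each had a scan of its own.

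Among the rises, 3 probes were well above background on all 6 arrays. Probe 10888- was at −2.28, −2.38 and −2.49 in myoblasts and at −1.16, −1.04 and −1.16 in myotubes. It rose 2.40-fold (log2 change 1.26, SE 0.10, limma adjusted p = 8.05e-05), with the lowest adjusted p of the exon-based probes. Probe 11010+ rose 2.03-fold, from −1.96, −1.92 and −2.04 to −0.90, −1.03 and −0.91 (log2 change 1.02, SE 0.10, limma adjusted p = 0.000169). Both kept their call under each alternative that was run, and their 3 myotube arrays lay within a narrow range, myotube replicate 1 included. With normexp the change of 10888- was 0.81. Probe 11506+ rose by 0.38, from −2.01, −2.26 and −2.11 to −1.74, −1.91 and −1.60 (SE 0.12, limma adjusted p = 0.0403). That call was the narrowest: it was lost with normexp (change 0.17, limma adjusted p = 0.162), without the filter on dim probes (0.119), and without myoblast replicate 1 (0.0612), 2 (0.147) or 3 (0.104) or myotube replicate 3 (0.108).

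The other 4 rises were in probes near the background, which had entered the test in part through the myotube arrays where they were brighter, so a rise was favoured by the filter. Probe 11752+ was at −3.80, −3.96 and −4.66 in myoblasts and at −2.91, −2.58 and −2.78 in myotubes. It was well above background on all 3 myotube arrays and, of the myoblasts, only on replicate 1, where most negative spots were flagged. Its rise of 1.38 was the largest among the exon-based probes that were tested (SE 0.23, limma adjusted p = 0.00263). For probe 11661- the levels were −4.46, −4.45 and −5.03 against −3.86, −3.24 and −3.06, and the rise was 1.26 (SE 0.25, limma adjusted p = 0.00556). It was well above background only on myoblast replicate 1 and on myotube replicates 2 and 3, and would not have been tested without that myoblast flag. On myotube replicate 1 its level was below the lowest flagged there, −3.42. In both probes all 3 myotube arrays lay above all 3 myoblast arrays, and myoblast replicate 3 was the lowest. Probe 11060- rose by 0.94, from −3.61, −3.80 and −4.29 to −2.90, −3.05 and −2.92 (SE 0.18, limma adjusted p = 0.00459). Probe 11600- rose by 0.90, from −3.54, −3.59 and −4.31 to −3.23, −2.87 and −2.65 (SE 0.24, limma adjusted p = 0.0196). Both were well above background on 2 myoblast arrays and all 3 myotube arrays.

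On myotube replicate 1 alone the changes of the 4 dim rises were 1.23 for 11752+, 0.79 for 11661-, 1.00 for 11060- and 0.58 for 11600-. With normexp they were 0.44, 0.28, 0.24 and 0.32, of which that of 11060- did not pass (limma adjusted p = 0.0872). The call of 11600- was also lost without the filter on dim probes (limma adjusted p = 0.0578) and without myotube replicate 2 (0.0615) or 3 (0.0741).

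Of the tested probes, 15 did not pass, 8 with a change above 0 and 7 below, from −0.72 to 0.93. In 12 of them the groups overlapped. Probe 10565+ lay just outside the threshold, with −2.48, −2.73 and −2.90 in myoblasts and −2.93, −3.16 and −3.33 in myotubes (log2 change −0.44, limma adjusted p = 0.0505). It passed under 4 of 14 alternatives, among them without myotube replicate 1 (change −0.54, limma adjusted p = 0.0170) or myoblast replicate 3 (0.0497). The next was 11806+, at 0.00, −0.21 and −0.27 against 0.09, 0.25 and 0.11 (log2 change 0.31, limma adjusted p = 0.0566). That probe passed under 5 of 14 alternatives, among them without myotube replicate 1 (limma adjusted p = 0.0369). Probe 10490+ had levels of 3.09, 2.88 and 3.03 in myoblasts and of 2.93, 2.17 and 2.30 in myotubes, with only replicates 2 and 3 below the myoblasts (log2 change −0.53, limma adjusted p = 0.0662, and −0.76 with 0.00102 without myotube replicate 1). Its change passed under 4 of 14 alternatives.

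The largest changes that did not pass, one in each direction, came from probes in which myotube replicate 1 stood apart. Probe 10627+ was at −4.53, −4.00 and −4.15 in myoblasts and at −4.49, −2.58 and −2.82 on myotube replicates 1, 2 and 3 (log2 change 0.93, SE 0.48, limma adjusted p = 0.146). Without myotube replicate 1 the change was 1.53 (limma adjusted p = 0.000663), and with that array alone it was −0.26. Probe 10627+ was well above background only on myoblast replicate 1 and on myotube replicates 2 and 3. The filter thus favoured a rise in the fit without myotube replicate 1, and the p-value of that fit cannot be read as support for one. Probe 11169- was at −3.16, −3.18 and −3.65 against −4.94, −3.45 and −3.76 (log2 change −0.72, SE 0.37, limma adjusted p = 0.150), and here myotube replicate 1 was the low one, without which the change was −0.27 (0.232). Probe 11125+ differed in sign between the myotube arrays, with −0.98 on replicate 1, above the myoblasts at −1.69, −1.51 and −1.29, and −2.20 and −1.79 on replicates 2 and 3, below them. Its change was −0.16 (95% interval −0.86 to 0.54), and −0.50 without myotube replicate 1 (limma adjusted p = 0.0437). Probe 10477+ was fitted without myotube replicate 3, whose spot was flagged as an outlier by the scanner software, and stood at −3.03, −2.88 and −2.55 against −1.71 and −2.86 (log2 change 0.53, limma adjusted p = 0.249). Its change was −0.05 without myotube replicate 1, and 1.11 without myotube replicate 2 (limma adjusted p = 0.0188), each with only 1 myotube array left in the fit.

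Some probes moved little and were measured with fair precision. The change of 11496+ was 0.14 (95% interval −0.07 to 0.36), that of 10294- was −0.08 (−0.37 to 0.20) and that of 11731- was 0.16 (−0.12 to 0.44). These intervals leave out a 2-fold change in either direction. Those of 12051- (−0.81 to 1.14) and 10477+ (−0.32 to 1.39) do not.

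The 12 exon numbers with a probe for each strand showed signal mostly on 1 strand or on none. Both strands were tested for 1 number, 10664, 1 strand for 5 numbers and neither for 6. Of all exon-based probes only 38.6% were tested, so few numbers with both are to be looked for. The counts were not tested against that share and do not show transcription from 1 strand. The strand tested was plus for 11711 and 11712 and minus for 10294, 11569 and 11661. For exon 10664 the plus-strand probe fell, as given above. The minus-strand probe was at −1.11, −1.81 and −1.22 in myoblasts and at −0.73, −1.38 and −1.09 in myotubes (log2 change 0.31, limma adjusted p = 0.301). The level of 10664+ relative to 10664- on the same array changed by −0.85 (SD of the difference 0.30 in myoblasts and 0.22 in myotubes, n = 3 each; two-sided exact permutation test, p = 0.1, which is the lowest that 3 arrays against 3 can give).

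Neighbouring numbers were also set side by side, since 24 probes fell into 9 runs of consecutive exon numbers. In 2 of these runs more than 1 number was tested. Probes 11009- and 11010+, of opposite strand, changed in opposite directions: the log2 changes were −1.23 and 1.02. The level of 11010+ relative to 11009- on the same array changed by 2.26 (SD of the difference 0.05 in myoblasts and 0.17 in myotubes, n = 3 each), a change that was present on all 3 myotube arrays, myotube replicate 1 included. The exact permutation test gave the lowest p it can (two-sided, 0.1). That outcome was fixed beforehand, since on every myotube array 11010+ lay above and 11009- below all its myoblast levels. It therefore adds nothing to the 2 changes. Probes 11711+ and 11712+, of the same strand, both fell (log2 changes −1.43 and −0.48), and the difference between them changed by −0.95 (two-sided exact permutation test, p = 0.1). These were all 3 pairs of tested probes with the same or adjoining numbers, and they were compared after their values had been seen. The Benjamini-Hochberg adjusted p of the permutation tests was 0.1 for each. With 3 arrays against 3 none of them could reach 0.05, so they decide nothing about the pairs. The third member of the latter run, 11710+, was not well above background on any array.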

How the data were processed

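Per the file headers, the scans of the 1-colour arrays, a design of genome build mm9, were processed in Agilent Feature Extraction 11.0.1.1, and the deposited intensity values are background-subtracted processed signals with 0 or 1 flags in other columns. Per the file headers these flags mark outlier and saturated spots and those well above background. The authors' deposited log2 table, for which no method is stated, has 60721 probes and no row for the exon-based probes, so it was not used.

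From the scanner files, 1439 control spots and 300 spots with a negative-control name were left out of each array, as were outlier spots, spots of a probe were averaged on the log2 scale, and each array was scaled by subtracting its 75th percentile. All probes with that flag on 3 or more of 6 arrays were fitted in 1 model with limma 3.58.1 (lmFit, eBayes; R 4.3.3), all 6 arrays and no covariate, with a threshold of 0.05 on the Benjamini-Hochberg adjusted p. The fit was tested on simulated data. The normexp alternative used median signals with an offset of 50, since the files hold no mean signal column. The labels state no pairing of the arrays by replicate number, and the main fit used none.

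All tested probes could be named: those that passed, both strands of a number and the largest changes that did not pass in full, others chosen for closeness to the threshold, for uneven arrays or for narrow intervals. The probes and rules were chosen with earlier results of these data known.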

Additional observations from a re-analysis of the deposited data

How the results depend on the processing

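Of the 17 exon-based probes that passed, 8 (6 lower, 2 higher) kept their call under every alternative in which they were fitted, and no called change turned its sign. The other 9 missed the threshold under at least 1 alternative, and 8 of the 15 probes that had not passed did so under at least 1. For 11661-, 11712+ and 11752+ the only alternative in which the call was missed was scan as a block. Probe 11169- passed only in that same fit, which shows neither a loss nor a gain. Leaving out 1 array at a time gave 14 to 23 probes past the threshold, 8 to 11 of them at 2-fold, and a median change between −0.26 and 0.01. Over all tested probes the share that passed in those fits also varied, from 38.2% to 64.6%. With normexp, which adds 50 to each intensity, 17 passed but 4 at 2-fold, all lower, and 49.1% of all tested probes passed. Without the filter on dim probes 23.7% of all probes passed. Of the 83 exon-based probes 16 then passed, 14 of them among the 17, and the median over all 83 was 0.21. The other 2, 10207- (change 1.64, limma adjusted p = 0.0251) and 11564+ (−0.87, 0.0430), were not well above background on any array. The median was 0.01 with scan as a block, a fit whose myotube arm is 1 array and whose p-values count among the lost calls above but show no loss. With the replicate number as a block (replicate block) 19 probes passed, 7 higher and 12 lower, and 9 at 2-fold, with a median of −0.12. In that fit 46.6% of all tested probes passed. The labels state no pairing by these numbers. Deviations from the group means correlated at −0.15, −0.00 and −0.09 for replicates 1, 2 and 3, which with 3 arrays per group cannot decide whether the arrays were paired. Detection rose to 40 probes at 1 array or more and fell to 25 at all 6. The planned use of the authors' table was not run, as it holds none of these probes.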
